A study of Mus musculus with 20 samples.

Results

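The 6 libraries described here belonged to the control line of a differentiation series made from ESD3 cells, a mouse embryonic stem cell line of strain 129s2/SvPas. They were chosen by line and by day, as days 1, 2 and 3 (early) and days 10, 12 and 14 (late), and made up 6 of the 20 libraries of the series. The control cells carried an shRNA against luciferase, a gene that mouse cells lack, delivered by a retrovirus according to the labels and by a lentiviral vector according to the methods, and were selected with puromycin. They had been kept on mouse embryo fibroblast feeder cells and were differentiated toward dopaminergic neurons as spherical neural masses (SNM), which are floating clumps of neural cells. The second line, grown and treated alike, carried an shRNA against HPRT, an enzyme of purine salvage, and its 6 libraries of the same days served for 1 comparison.

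Each line was a single infected and selected population, and each day of a line gave 1 library from pooled RNA. The 3 libraries of a phase were therefore successive collections and not replicate cultures of 1 time point, so the p-values below measured a difference between phases against the spread from day to day. All values are log2 ratios to the day 1 library of the control line, which is why each gene stands at 0 on day 1. The deposited tables held differences and not levels, so levels were not compared between genes. In such whole-culture RNA, fewer cells of a type and less RNA per cell cannot be told apart.

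Neural differentiation replaces dividing cells with cells that have left the cell cycle. Progenitors express factors such as Sox2, Pax6 and the intermediate filament gene Nes, and proneural factors then start a program in which Dcx and the RNA-binding Elavl proteins appear first, followed by the cytoskeleton of axons and dendrites and by the proteins that release and sense transmitter at synapses. Hox genes mark position along the body axis behind the midbrain, and dopaminergic neurons of the midbrain make dopamine through Th and Ddc and load it into vesicles through Slc18a2.

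Libraries of 1 phase lay closer to each other than to those of the other phase. Over the 13713 genes with a mean normalized count of at least 16 in the control line, the median absolute log2 difference between libraries was 0.141 to 0.186 among the early days and 0.404 to 0.548 between the phases. Days 10 and 12 differed by 0.135, whereas day 14 stood 0.262 and 0.282 from days 12 and 10. The factors by which the libraries had been scaled within tables ran from 0.733 of that of day 1 on day 2 to 1.4 on day 3, and the read number of each library is unknown here. Of the 21 muscle genes tested, 19 were lowest on day 10 and 19 were highest on day 14 of the 6 libraries, a swing within the late phase. Over all 13713 genes these counts were 1855 and 3615.

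**Figure D1:**
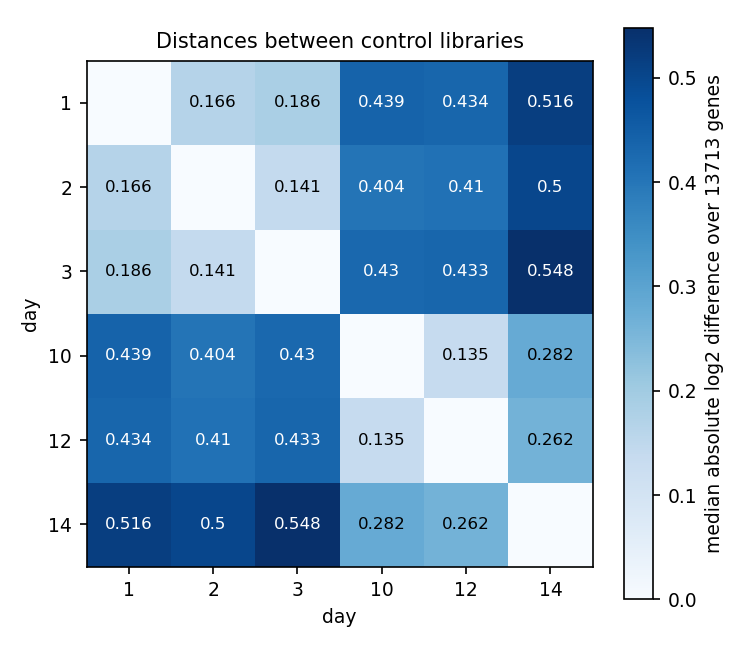
Median absolute log2 difference between each pair of the 6 control libraries over all genes tested, with the day of differentiation on both axes and darker blue for a larger difference. Pairs within the early days (0.141 to 0.186) and days 10 and 12 (0.135) are lightest, day 14 stands 0.262 to 0.282 from the other late days, and pairs across the phases lie between 0.404 and 0.548.

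Late libraries were first compared with early ones across all genes, which asks which transcripts changed as the neural masses matured. With limma and Benjamini-Hochberg adjustment, 5798 of 13713 genes passed an adjusted p of 0.05, or 42.3%, of which 2731 (19.9%) were higher and 3067 (22.4%) were lower in the late days. The balance of directions depended on scaling and route, with 3058 higher and 2507 lower when each library was centred on its median, and 2822 higher and 2783 lower when the step from day 3 to day 4 was taken through the knockdown line. Differences of at least 2-fold were more often rises, with 1325 genes (9.66%) higher and 676 (4.93%) lower. The 3 late libraries lay above all 3 early ones for 3665 genes (26.7%) and below all of them for 4277 (31.2%). The median difference over all genes tested was -0.04, so the lists below are set against a median close to 0. Without day 2, the library whose absence changed the count most, 3810 genes passed, and without day 14, which stood apart, 5875 passed.

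The largest rises among well-expressed genes were led by a Hox gene and by secreted proteins. Hoxb3 (mm9 chr11:96184640-96207999), a positional factor of the hindbrain and neck, stood at 1.59 and 1.91 on days 2 and 3 and at 5.46, 5.30 and 4.88 on days 10, 12 and 14, a rise of 4.05 ± 0.51 (SE) or 16.6-fold (adjusted p = 0.00345). All of its late libraries lay above the early ones, which the rule for naming these genes required. Serping1 (chr2:84605544-84615601), the C1 inhibitor of the complement system, rose by 3.62 ± 0.22, from 0.68 and 0.26 on days 2 and 3 to 3.65, 4.11 and 4.03. It was high in every late library and low in every early one. Igf1 (chr10:87321010-87399792), a growth factor, stood at -0.36 and -0.32 on days 2 and 3, at 2.71 and 2.66 on days 10 and 12 and at 4.27 on day 14, so its rise of 3.44 ± 0.45 was uneven within the late phase.

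Further genes with the largest rises were Rarres2 (chemerin), Emcn (the sialomucin endomucin), Myt1l (a neuronal zinc finger factor), the lipid transporter gene Abca9, Cygb (cytoglobin) and Apod (apolipoprotein D), with differences from 3.23 to 3.75. Abca9 stood at 0.25 and 0.58 on days 2 and 3 and at 3.34, 3.18 and 4.14 on the late days. Rarres2 depended on how the tables were joined, since its rise of 3.75 came to 2.56 when the step from day 3 to day 4, in which the control table was at odds with the others, was taken through the knockdown line. Each of the rising genes named here remained called without any single library.

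The largest falls included regulators of growth and of early neural cells. Pim2 (chrX:7455388-7460558), a survival kinase, fell by 3.53 ± 0.34, from 0.09 and 0.66 on days 2 and 3 to -3.04, -2.84 and -3.95 (adjusted p = 0.00227). Dnmt3b (chr2:153475186-153513466), a DNA methyltransferase of early embryonic cells, fell by 2.61 ± 0.50 and was lowest on day 14, at -3.66 against -2.14 and -1.70 on days 10 and 12. Fzd10, a Wnt receptor, fell by 2.32 ± 0.14, with late values of -2.04, -2.43 and -2.43. Fgf15, a growth factor of the embryonic brain, went from 0.51 and 1.04 on days 2 and 3 to -1.54, -1.43 and -2.43. The early and late values of these 4 genes did not overlap, which the rule for naming them required.

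Nqo1 (a quinone reductase), Arhgap22 (a GTPase activator), Gpr17 (a receptor of oligodendrocyte precursors), Pop1 (an RNase P and RNase MRP protein) and Rrm2 (a subunit of ribonucleotide reductase) fell by 1.99 to 2.37. S100a4, a calcium-binding protein of fibroblasts and other mesenchymal cells, had the largest fall among these well-expressed genes, with a difference of -4.03 ± 1.17, and late values of -6.37, -4.69 and -1.55. Its call (adjusted p = 0.037) was lost without any 1 of days 1, 2, 3, 10 or 12, at adjusted p = 0.063 to 0.103. Its difference was -2.94 without day 10 and -5.35 without day 14 (adjusted p = 0.00437).

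**Figure D2:**
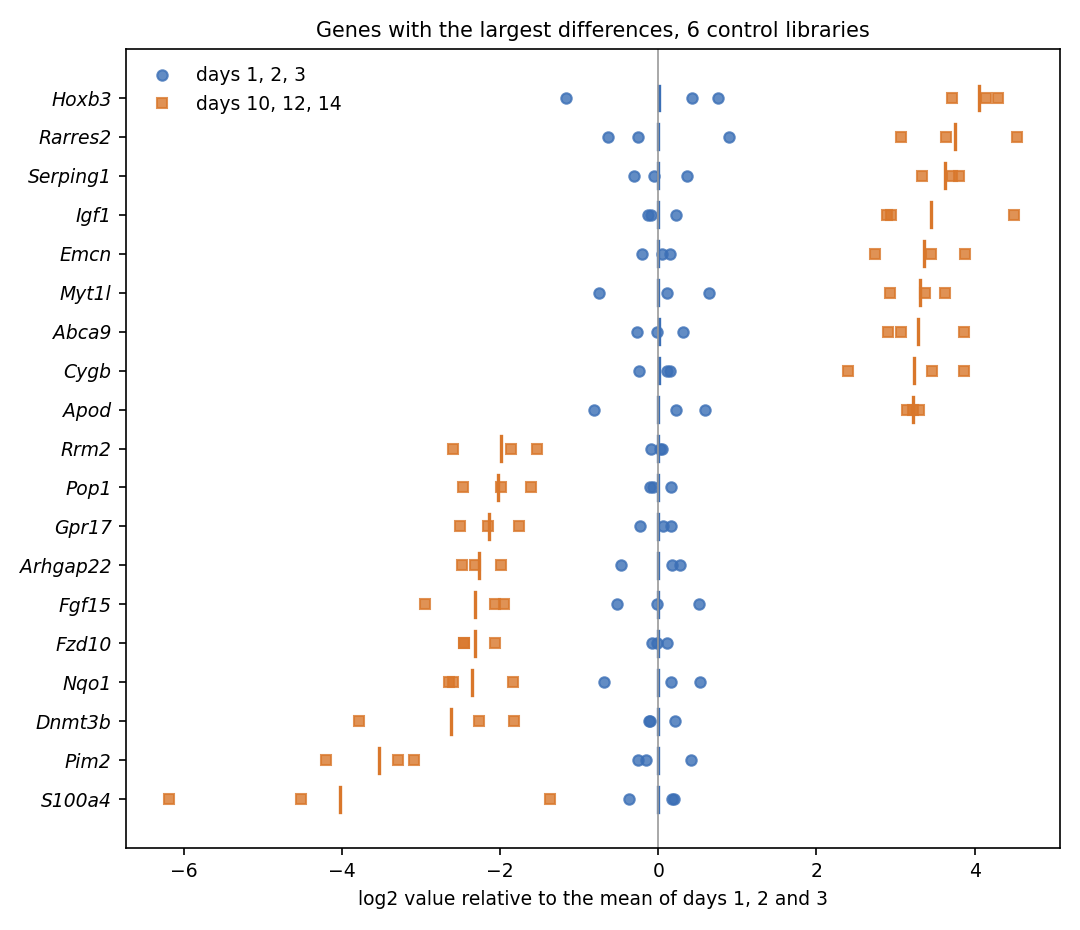
Genes with the largest rises and falls under the rule for named genes, as log2 values relative to each gene's mean over days 1, 2 and 3 (horizontal axis). Blue circles are the 3 early libraries, orange squares the 3 late ones and vertical bars the means. The rule required the groups to be apart for every gene shown, and S100a4 has the widest spread among late libraries.

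Genes of synaptic transmission gave the most even rise. Of 31 tested members of the synaptic vesicle and active zone list, 28 rose and none fell by limma (30 higher and 0 lower at an unadjusted p under 0.05), against 19.9% of all genes rising, and the median difference was 1.45. Snap25, a SNARE protein of vesicle fusion, stood at 0.88 and 0.91 on days 2 and 3 and at 2.30, 2.62 and 2.56 on the late days, a rise of 1.90 ± 0.27 (adjusted p = 0.00442). Syn1, which tethers vesicles, rose by 1.46 ± 0.13, from 0.20 and 0.39 to 1.59, 1.8 and 1.6. In both genes the 3 late values lay close together and above every early value. Rph3a, a Rab3 effector on vesicles, rose most in the list (3.16 ± 0.33), followed by Rab3c, a vesicle GTPase (2.42 ± 0.27), and Doc2b, a calcium sensor of release (2.26 ± 0.28). Leaving out each library in turn kept 26 or 27 members called.

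On the receiving side, 10 of 23 tested genes of the postsynaptic and adhesion list rose (43.5%, against 19.9% of all genes), Homer1 alone fell, and the median was 0.59. Dlg2, a scaffold of the postsynaptic density, went from 0.27 and 1.10 on days 2 and 3 to 2.63, 3.32 and 3.31. Lrrtm2, a synaptic adhesion protein, was flat over the early days at 0.00 and -0.05 and stood at 2.38, 2.71 and 2.31 on the late days, a rise of 2.49 ± 0.13. Shank1, a further scaffold, rose by 2.27 ± 0.35. Homer1, a scaffold that links glutamate receptors to calcium stores, had early values near 0 and late values of -0.35, -0.47 and -0.25, and its call (difference -0.38 ± 0.10, adjusted p = 0.026) was lost without any single library other than day 14 and through the knockdown line (adjusted p = 0.0516).

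Both excitatory and inhibitory signaling genes rose. Of 23 tested glutamate genes 13 rose and none fell (16 and 0 at an unadjusted p under 0.05 in limma), with a median of 0.86. Of 21 tested GABA and glycine genes 13 rose and none fell (13 and 0), with a median of 1.05. A gene low early could pass the filter on the mean count through its late rise. With a filter on the median over all tables instead, 10 of 17 GABA and glycine genes rose, with a median of 0.79. For glutamate genes that filter gave 13 of 21, with a median of 1.23. Only 8 genes of each list passed a stricter filter on counts, of which 5 rose. Gria1, an AMPA receptor subunit, held at 0.16 and 0.08 on days 2 and 3 and reached 3.00, 3.08 and 2.81, a rise of 2.88 ± 0.11 or 7.38-fold (adjusted p = 0.000662). Gad1, which makes GABA, climbed within the early phase to 0.90 and 1.79 and stood at 3.81, 4.21 and 4.05 late. Slc32a1, the vesicular GABA transporter, rose by 2.57 ± 0.20 with late values of 2.92, 2.95 and 2.62. Grin1 and Grm7, glutamate receptors, both rose by 2.06 (SE 0.34 and 0.38). Glra2, a glycine receptor subunit, rose by 3.42 ± 0.65 but swung between -0.72 and 1.70 on days 2 and 3, and without day 3 its rise was 4.10.

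Of 29 tested voltage-gated channel genes, which make neurons excitable, 18 rose, none fell by limma (18 and 0 at an unadjusted p under 0.05) and the median was 1.01. Cacna2d3, an auxiliary calcium channel subunit, rose by 2.90 ± 0.14, from 0.28 and -0.08 to 2.99, 3.13 and 2.79. The sodium channel genes Scn3b and Scn2a1 rose by 2.54 ± 0.23 and 2.33 ± 0.22. Among genes of the neuronal cytoskeleton and axon, 20 of 28 rose (71.4%) and none fell (23 and 0), with a median of 0.95. Mapt (tau) stood at 0.63 and 0.77 on days 2 and 3 and at 2.27, 2.75 and 2.80 late, while Kif5a, an axonal motor, and L1cam, an adhesion molecule, each rose by 1.94. Map2, found in the tables under its older symbol Mtap2, rose by 0.96 ± 0.15 (late values 1.18, 0.97 and 0.66).

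Markers of young neurons differed in how far they moved. Tubb3, the neuronal beta tubulin, stood at 0.54 and 0.40 on days 2 and 3 and at 1.04, 0.98 and 0.51 on the late days, so that the groups overlapped (difference 0.53 ± 0.21, adjusted p = 0.0863). Without day 14 it passed, at 0.70 (adjusted p = 0.0348). Stmn2, a microtubule regulator of growing axons, rose by 0.73 ± 0.16, and its call was lost without day 12 (adjusted p = 0.0535). Dcx, a microtubule protein of migrating neurons, rose by 1.79 ± 0.17 or 3.46-fold, from 0.30 on both days 2 and 3 to 2.17, 2.12 and 1.67.

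**Figure D3:**
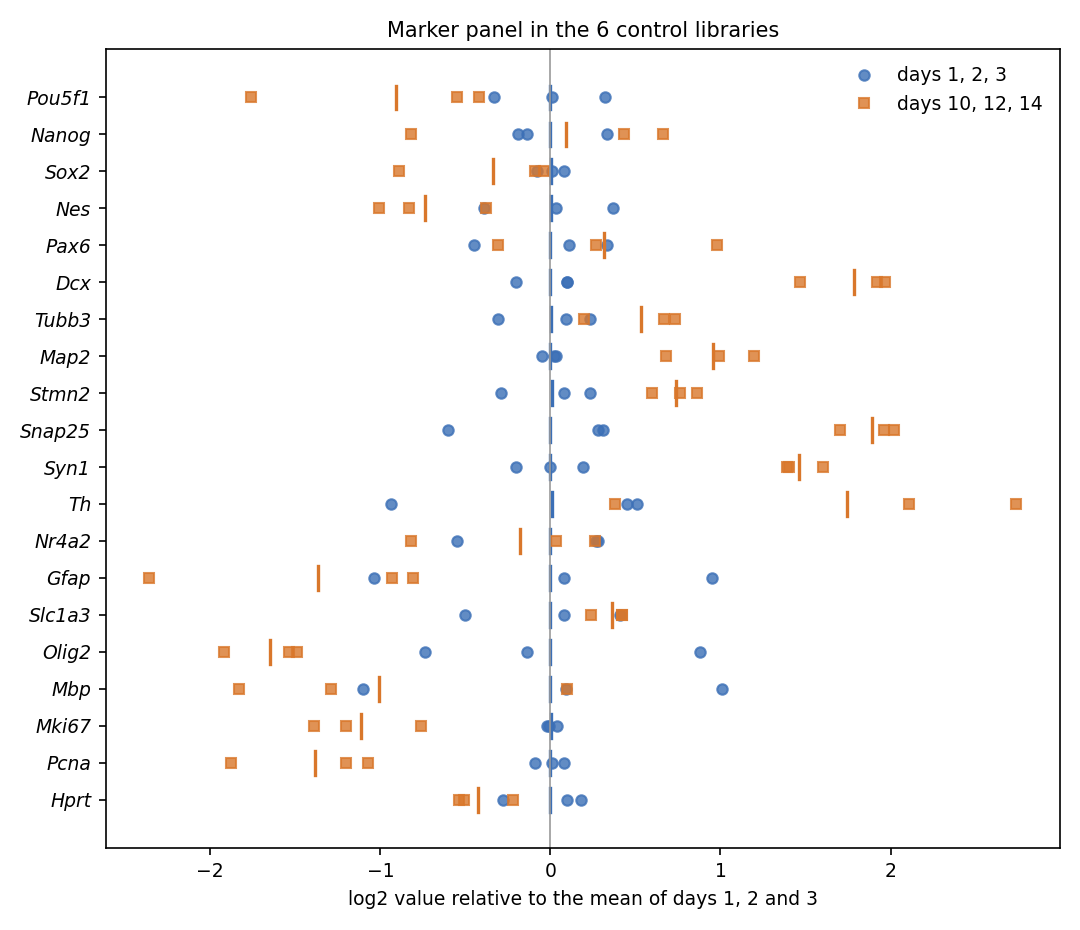
The 20 tested genes of the marker panel, as log2 values relative to each gene's mean over days 1, 2 and 3 (horizontal axis). Blue circles are early and orange squares late libraries, and bars are means; the late libraries of Dcx, Map2, Stmn2, Snap25 and Syn1 lie to the right of all early ones, those of Mki67, Pcna and Olig2 to the left, and day 14 is the leftmost orange square for Pou5f1, Nanog and Sox2.

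In the list of proneural and early neuron genes 11 of 26 rose (42.3%, against 19.9% of all genes), Eomes alone fell and the median was 1.05. The late phase was not uniform here, because the list's median relative to the early mean was 1.51 on day 10, 1.10 on day 12 and 0.28 on day 14. Neurog2, a proneural factor, stood at 2.28, 1.66 and 0.50 on these days, and its difference of 1.08 did not pass (adjusted p = 0.116). Myt1l, in contrast, kept 3.68, 4.37 and 4.12, and Elavl4, a neuronal RNA-binding protein, rose by 1.61 ± 0.21 with 2.11, 1.82 and 1.35. Eomes, a factor of intermediate progenitors, fell by 1.88 ± 0.40. Only 5 to 7 members rose without any 1 of days 1, 2, 3, 10 or 12, and 14 rose without day 14.

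Genes of DNA replication and of mitosis fell together. Of 49 tested replication genes 45 fell and none rose by limma (47 and 0 at an unadjusted p under 0.05), against 22.4% of all genes falling, with a median of -1.17. Of 46 mitosis genes 44 fell and none rose (45 and 0), with a median of -1.11. All 3 late libraries lay below all early ones for 48 of the replication genes and 45 of the mitosis genes, against 31.2% of all genes. In the fits that left out a library, 40 to 46 replication genes and 35 to 44 mitosis genes fell.

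Rrm2, which makes deoxynucleotides for replication, was flat at 0.11 and 0.14 on days 2 and 3 and stood at -1.44, -1.77 and -2.50 on the late days, a fall of 1.99 ± 0.27 (adjusted p = 0.00411). Tk1, thymidine kinase, went to -1.57, -1.45 and -1.69 (difference -1.65 ± 0.10), and Dut, which clears dUTP, to -1.44, -1.27 and -2.20. Pcna, the sliding clamp of the replication fork, fell by 1.38 ± 0.22, with -1.11, -0.98 and -1.79. Mki67, the proliferation marker Ki-67, stood at 0.01 and 0.06 on days 2 and 3 and at -0.74, -1.18 and -1.37 late, a fall of 1.12 ± 0.17 or 2.17-fold. In each of these genes day 14 was the lowest library.

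Among mitosis genes Birc5 (survivin, of the chromosomal passenger complex) had late values of -1.2, -1.34 and -1.72, the kinase gene Aurka -1.13, -1.12 and -1.96, and Cdc20, an activator of the anaphase-promoting complex, -1.02, -1.09 and -1.81. Their early values lay between -0.02 and 0.13. In the list of genes of cell cycle exit 6 of 19 were higher (31.6%) and 3 lower (15.8%), against 19.9% and 22.4% of all genes. The inhibitor gene Cdkn1c rose by 1.46 ± 0.15, from 0.05 and -0.05 to 1.77, 1.32 and 1.3, the Cdk5 activators Cdk5r1 and Cdk5r2 rose by 1.73 and 1.24, and Ccne2, a cyclin of the entry into S phase, fell by 1.84 ± 0.18. Without day 14, 6 genes of this list fell.

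The promoters of the falling cell cycle genes shared short sequences. In windows from 250 bases before to 50 bases after the start of transcription (RefSeq, GRCm38.p6), the letters TTTGAA, those of the cell cycle homology region (CHR) known from mitotic genes, occurred on either strand for 30 of the 39 mitosis genes found in the table (76.9%), against 13.8% of the 10637 tested genes with a window and 20.2% of all 27025 genes in it. The letters TTTCCCGC or TTTGGCGC, forms of the E2F site known from replication genes, occurred for 12 of 40 replication genes (30.0%), against 3.39% of tested genes and none of the mitosis genes. In 27 of these 30 mitosis genes the CHR match nearest to the start was centred within 50 bases of it. These are matches of letters, and binding was not measured. A CHR match alone went with little, since 26.0% of all tested genes that held one were lower in the late days and 22.4% of those without. For the E2F letters these shares were 38.0% and 22.3%.

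The stretches that follow are the 150 bases before the start for 4 mitosis genes and 3 replication genes that fell and held a match there. Each of these genes was called, with groups that did not overlap and tables agreeing within 0.1. Some promoters were left out of this choice, so genes with larger falls and a match may be missing. The stretches are shown in the direction of transcription. Capitals mark CHR matches and CCAAT boxes (CCAAT, either strand) for the mitosis genes and E2F matches for the replication genes.
Cdc20 (chr4:118437344-118437493, minus strand): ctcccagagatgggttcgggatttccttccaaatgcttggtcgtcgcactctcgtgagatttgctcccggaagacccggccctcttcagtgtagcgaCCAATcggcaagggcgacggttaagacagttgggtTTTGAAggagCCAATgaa
Ube2c (chr2:164769779-164769928, plus strand): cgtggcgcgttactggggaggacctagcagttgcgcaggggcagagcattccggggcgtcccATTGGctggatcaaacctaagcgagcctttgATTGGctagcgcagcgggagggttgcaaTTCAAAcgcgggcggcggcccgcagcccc
Kif11 (chr19:37376232-37376381, plus strand): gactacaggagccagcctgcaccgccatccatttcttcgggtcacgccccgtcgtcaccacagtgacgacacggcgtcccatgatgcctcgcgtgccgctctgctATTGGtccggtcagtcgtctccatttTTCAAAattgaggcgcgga
Ccnf (chr17:24251410-24251559, minus strand): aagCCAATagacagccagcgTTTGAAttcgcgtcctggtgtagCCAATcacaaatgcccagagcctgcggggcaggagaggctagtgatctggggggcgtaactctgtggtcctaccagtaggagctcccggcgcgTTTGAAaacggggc
Cdc6 (chr11:98908001-98908150, plus strand): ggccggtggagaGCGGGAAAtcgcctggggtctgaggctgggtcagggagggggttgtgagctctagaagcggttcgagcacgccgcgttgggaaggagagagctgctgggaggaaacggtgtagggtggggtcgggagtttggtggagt
Mcm5 (chr8:75109359-75109508, plus strand): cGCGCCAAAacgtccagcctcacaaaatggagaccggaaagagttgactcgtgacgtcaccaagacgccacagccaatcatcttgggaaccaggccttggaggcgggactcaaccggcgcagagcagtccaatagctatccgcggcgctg
Mcm6 (chr1:128359706-128359855, minus strand): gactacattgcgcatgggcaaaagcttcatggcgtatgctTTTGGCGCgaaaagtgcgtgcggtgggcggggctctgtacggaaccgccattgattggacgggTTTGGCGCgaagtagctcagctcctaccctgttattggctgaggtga

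In these 4 mitosis genes, chosen for a match in the stretch, the nearest CHR match before the start began 14 to 29 bases from it. Over the 30 mitosis genes with a match on either side, the nearest was centred at a median of 6.0 bases after the start. Each stretch also held at least 1 CCAAT box, a motif found for 79.5% of the mitosis genes and 42.9% of tested genes. It was found for 93.8% of cholesterol synthesis, 60.0% of DNA replication, 58.3% of posterior Hox, 39.1% of synaptic vesicle and 30.8% of ribosome biogenesis genes. Of tested genes with a CCAAT box 24.4% were lower in the late days, and of those without 21.7%. Mcm6, a subunit of the replicative helicase, held 2 E2F matches. The falls were 1.38 for Cdc20, 1.28 for Ube2c (the ubiquitin-conjugating enzyme of the anaphase-promoting complex), 1.2 for Kif11 (a spindle motor) and 1.17 for Ccnf (cyclin F), and 1.58 for Cdc6 (which loads the helicase), 1.57 for Mcm5 and 1.18 for Mcm6, all on the log2 scale. Cdc20 came from the rule for named genes, and the other 6 were chosen after their values were seen.

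Ribosome biogenesis genes fell as well. Of 33 tested members 31 fell (93.9%, against 22.4% of all genes) and none rose by limma (32 and 0 at an unadjusted p under 0.05), with a median of -1.0. Utp20, of the small subunit processome, went from -0.22 and 0.06 on days 2 and 3 to -1.39, -1.40 and -1.8 (difference -1.48 ± 0.15). Heatr1, of the same complex, fell by 1.42 ± 0.26, and Ddx21, a nucleolar RNA helicase, by 1.32 ± 0.24. Both members that did not pass were Myc family factors, Mycn at -0.95 (adjusted p = 0.0619) and Myc at -0.15 (adjusted p = 0.308). The early and late values of Myc overlapped, with -0.20, -0.21 and -0.19 on the late days.

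Cholesterol synthesis genes also fell, 17 of 24 (70.8%, against 22.4% of all genes) with none higher (21 and 0 at an unadjusted p under 0.05 in limma), by a median of -0.62. Lss, lanosterol synthase, stood at 0.54 and 0.64 on days 2 and 3 and at -0.71, -0.57 and -0.51 late, a fall of 0.99 ± 0.19 (adjusted p = 0.0099). Idi1, an isomerase of the isoprenoid steps, fell by 0.93 ± 0.12, with -0.67, -0.92 and -0.79 late. In both genes the late libraries lay close together and below all early ones. Only 10 or 11 members were called without 1 of days 2, 3, 10 or 12.

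Of 37 respiratory chain genes 15 fell (40.5%, against 22.4% of all genes), none rose (22 and 0) and the median was -0.35. Cycs, cytochrome c, fell by 1.12 ± 0.11 on the route of the control tables and by 0.73 on the other route, and Cyc1, cytochrome c1, by 0.67 ± 0.11. Day 14 stood apart here, with a median of -0.16 against -0.50 and -0.39 on days 10 and 12. The count moved with each library, since 29 genes fell without day 14 and 5 without any other single one.

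**Figure D4:**
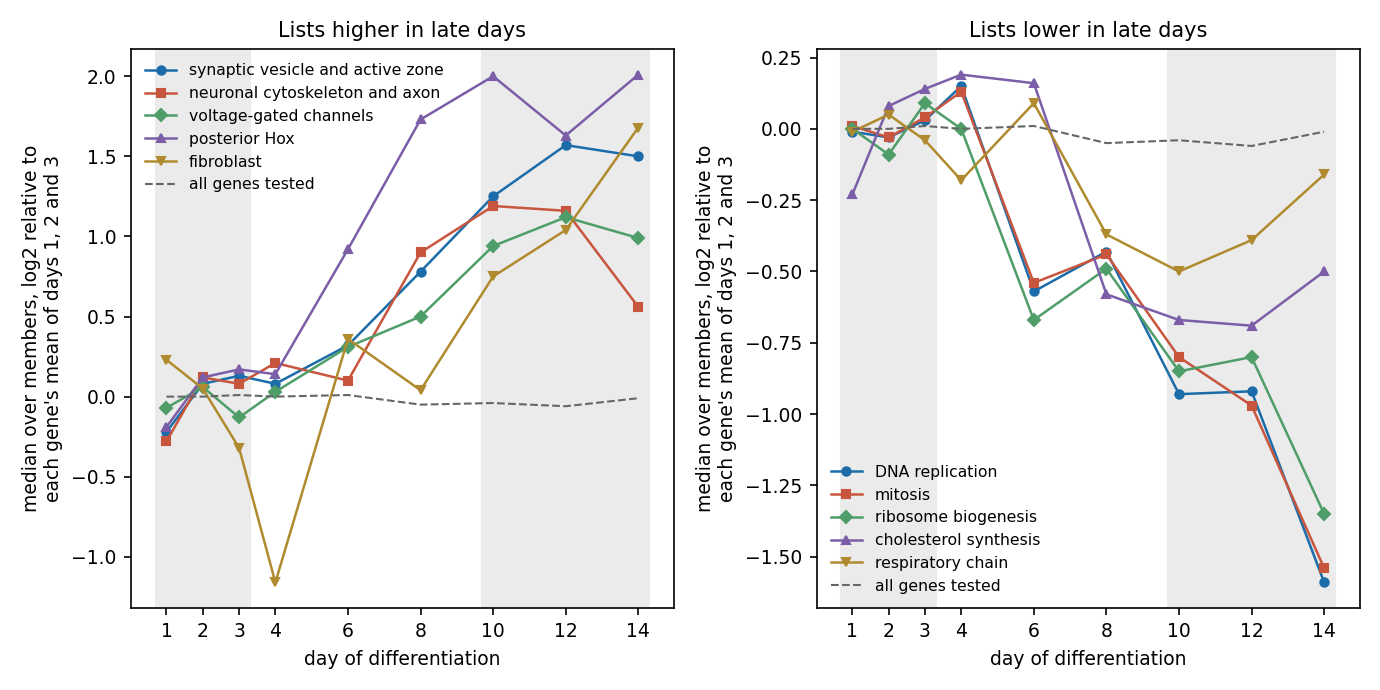
Median over the tested members of 10 gene lists on each day from 1 to 14 (horizontal axis), as log2 values relative to each gene's mean over days 1, 2 and 3, with the early and late days shaded and the median of all genes dashed. Neuronal and Hox lists (left) are within 0.28 of 0 through day 4 and reach 0.56 to 2.01 on day 14, the fibroblast list dips to -1.16 on day 4, and the replication, mitosis and ribosome biogenesis lists (right) are below 0 from day 6 on and lie between -1.35 and -1.59 on day 14.

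The days between the phases showed when the lists departed from their early level. On day 4 the median of the replication list was 0.15, and on days 6 and 8 it was -0.57 and -0.43, before -0.93, -0.92 and -1.59 on days 10, 12 and 14. The mitosis list followed with 0.13, -0.54, -0.44, -0.80, -0.97 and -1.54. The median of the synaptic vesicle list was 0.08, 0.32 and 0.78 on days 4, 6 and 8 and 1.25, 1.57 and 1.5 late. The study left day 6 out of its own pathway analysis as discrepant. These medians were a description and were not tested.

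The calls of pluripotency genes went both ways. Of 30 tested genes 6 fell (20.0%, against 22.4% of all genes), 2 rose and the median was -0.12, with 22 genes not passing. When genes with tables disagreeing by over 0.1 were left out, 4 of 16 fell, 2 rose and the median was -0.75. Nanog, Zfp42 and Lin28a were among the genes left out there. The RNA-binding genes Lin28a and Lin28b, which block maturation of let-7 microRNAs, fell by 2.63 ± 0.41 and 1.94 ± 0.31, with Lin28b at 0.30 and 0.60 on days 2 and 3 and at -1.31, -1.32 and -2.30 late. Dnmt3b is described above. Pou5f1 (Oct4), the central factor of the pluripotent state, stood at -0.65 and -0.31 on days 2 and 3 and at -0.87, -0.74 and -2.08 late, a difference of -0.91 ± 0.39 (adjusted p = 0.111). Nanog stood at 0.57, 0.80 and -0.68 on the late days, on both sides of its early values, with a difference of 0.09 ± 0.41 (adjusted p = 0.876).

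Day 14 was the lowest of the 6 libraries for 23 of the 30 pluripotency genes and day 12 the highest for 13. Over all 13713 genes tested these counts were 3906 and 1534. Esrrb, a factor of naive stem cells, stood at 0.99 and 1.13 on days 10 and 12 and at -0.46 on day 14, and Zfp42 (Rex1) at 0.87, 1.15 and -0.71. Klf4 and Tbx3, both of the naive circuit, had differences of 0.81 and 0.86, but the call of Tbx3 was lost without any single library other than day 14 and that of Klf4 was kept in only 2 of 6 such fits. Without day 14, 7 genes of the list rose and 6 fell. Sall4 had a difference of -1.45 ± 0.42 and was called without day 12 or day 14 but not without any other library. Without day 2 or day 3, 3 genes of the list fell.

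Of 20 tested neural progenitor genes 4 fell (20.0%, against 22.4% of all genes), none rose by limma (7 and 0 at an unadjusted p under 0.05) and the median was -0.31. Hmga2, a chromatin protein of young progenitors, fell by 1.72 ± 0.25, from 0.51 and 0.50 on days 2 and 3 to -1.04, -1.28 and -1.83 (adjusted p = 0.00478). It was the single member called in all 6 fits that left out a library. Sox2 stood at -0.09 and 0.07 on days 2 and 3, at -0.05 and -0.10 on days 10 and 12 and at -0.90 on day 14 (difference -0.34 ± 0.24, adjusted p = 0.296). Nes had 0.42 and 0.76 on days 2 and 3 and -0.44, -0.62 and 0.01 late (difference -0.74 ± 0.25, adjusted p = 0.0573), and passed without day 1 (-0.94, adjusted p = 0.0382) or without day 14 (-0.92, adjusted p = 0.035). Pax6 stood at 1.43, 0.72 and 0.14 on the late days and overlapped its early values (0.32 ± 0.37, adjusted p = 0.523). Between 1 and 6 members fell when 1 library was left out.

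Hox genes rose by the largest median of any list, 1.98, with 14 of 20 tested members higher (70.0%, against 19.9% of all genes), 1 lower and all 14 rises over 2-fold. Of 29 listed genes 20 passed the filter on the mean count, which a gene low early could pass through its late rise. With a filter on the median over all tables instead, 11 of 16 rose, 1 fell and the median was 1.81. Only 1 Hox gene passed the stricter filter on counts. Genes of paralog group 4, active from the hindbrain back, were low in every early library and high in every late one. Hoxb4 (chr11:96177998-96182952) stood at -0.20 and -0.36 on days 2 and 3 and at 4.11, 3.61 and 3.31, a rise of 3.87 ± 0.22 (adjusted p = 0.00154). Hoxc4 stood at 1.00 and 0.76 and then at 4.03, 4.31 and 3.87, and Hoxa4 rose by 1.96 ± 0.26. Hoxb5 had the largest difference in the list, 5.62 ± 0.73, with 6.81, 7.12 and 7.26 late, but its early values of 3.03 and 1.29 on days 2 and 3 were far apart and its tables disagreed by 0.17.

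Along the clusters, Hoxa2, Hoxa3 and Hoxa5 rose by 1.33, 1.66 and 1.61, Hoxd3 by 3.98, Hoxc5 by 3.77, Hoxb7 and Hoxb8 by 2.00 and 2.67, and Hoxd8 and Hoxd9 by 2.28 and 3.17, the call of Hoxd8 being kept in only 2 of 6 fits that left out a library. Hoxb1 alone fell, by 3.26 ± 0.63, with -2.17, -2.62 and -4.65 late. Overlapping tables disagreed by over 0.1 on a step for 10 of the 20 genes, and 7 rises and no fall were called when such genes were left out. Without any 1 library 13 or 14 members rose.

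Genes of anterior positions were called about as often as all genes. Of 18 tested members 4 rose (22.2%, against 19.9%) and 3 fell (16.7%, against 22.4%). Pax8 rose by 3.45 ± 0.32, from -0.46 and 0.28 on days 2 and 3 to 3.74, 3.65 and 2.78, Pax2 rose by 3.29 ± 0.47 and En1, a factor of the midbrain and hindbrain border, by 1.01 ± 0.17. Fgf8, the growth factor of that border and also a component of the differentiation medium, fell by 4.19 ± 0.57, with -2.45, -3.71 and -4.10 late (table disagreement 0.13). Otx2, of the forebrain and midbrain, stood at -0.73 ± 0.38 and did not pass. Without day 2, 12 or 14 only 1 anterior gene fell. In the list of dorsal and sensory factors 8 of 24 rose (33.3%) and 4 fell (16.7%), with a median of 0.11. When genes with tables disagreeing by over 0.1 were left out, 3 of 14 rose, 4 fell and the median was -0.13. Lhx5, of interneurons, rose by 2.90 ± 0.45 (4.09, 3.72 and 2.53 late) and Phox2a, of autonomic neurons, by 1.38 ± 0.30, the latter not without day 2 (adjusted p = 0.0506). A single gene of this list fell without day 2, 3 or 12.

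Dopaminergic genes gave no common direction, with 6 of 21 tested members higher, 2 lower and a median of 0.09 against shares of 19.9% and 22.4% over all genes. Slc18a2, which loads dopamine into vesicles, rose by 1.13 ± 0.16, from -0.05 and 0.19 on days 2 and 3 to 1.40, 1.26 and 0.87 (adjusted p = 0.00462). Ddc, which makes dopamine from L-DOPA, had a difference of 0.91 ± 0.27, a call kept only without day 10. Th, the first enzyme of the pathway, stood at 1.45 and 1.39 on days 2 and 3, at 3.68 and 3.05 on days 10 and 12 and at 1.32 on day 14, below both of those early days. Its difference of 1.74 ± 0.70 did not pass (adjusted p = 0.0932) and was 2.42 without day 14 (adjusted p = 0.0205). With the step from day 3 to day 4 taken through the knockdown line the difference was 2.32 and passed (adjusted p = 0.0427).

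Nr4a2 (Nurr1), a factor of midbrain dopaminergic neurons, stood at 0.83 and 0.82 on days 2 and 3 and at 0.81, 0.58 and -0.27 late (difference -0.17 ± 0.36, adjusted p = 0.723). Foxa2 and Lmx1a, floor plate and midbrain factors, differed by 0.07 and 0.10. The dopamine transporter gene Slc6a3 and the factor gene Pitx3 did not pass the filter of 16 normalized counts and were not tested. Qdpr and Msx1 had differences of -0.38 and -1.58, with calls kept in 1 of 6 fits that left out a library, and Msx1 was not called through the knockdown line (adjusted p = 0.0597). When the day 2 library was left out, 3 genes of the list rose.

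Glial genes varied among the early days themselves. Gfap, an intermediate filament of astrocytes, stood at 0, -0.87 and -1.99 on days 1, 2 and 3 and at -3.31, -1.88 and -1.76 late (difference -1.36 ± 0.63, adjusted p = 0.131). Mbp, a myelin protein, stood at 0, -0.92 and -2.11 and then at -2.84, -0.91 and -2.30 (-1.01 ± 0.69, adjusted p = 0.286). In both genes the spread within a phase was as wide as the difference between phases. Olig2 and Olig1, factors of the oligodendrocyte lineage, fell by 1.66 ± 0.41 and 1.86 ± 0.47, calls that were lost without day 2, 10 or 12 (adjusted p = 0.0583 to 0.0637 for Olig2). Gpr17 went from 0.10 and -0.29 on days 2 and 3 to -2.21, -1.82 and -2.57 and stayed called without any 1 library.

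Over the lists, 4 of 18 oligodendrocyte genes fell and 2 rose, and 3 of 21 astrocyte genes rose and 1 fell, shares near or under those of all genes (19.9% higher, 22.4% lower). Pdgfra, which oligodendrocyte precursors and mesenchymal cells share, rose by 1.79 ± 0.34, and Gja1, a gap junction protein of astrocytes, fell by 0.96 ± 0.10. Slc1a3, the glial glutamate transporter, stood at -0.33 and -0.91 on days 2 and 3 and at 0.01, -0.17 and 0.01 late, overlapping (0.36 ± 0.24, adjusted p = 0.261). Without day 2 a single oligodendrocyte gene fell and a single astrocyte gene rose, and without day 10 these counts were 2 and 1.

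**Figure D5:**
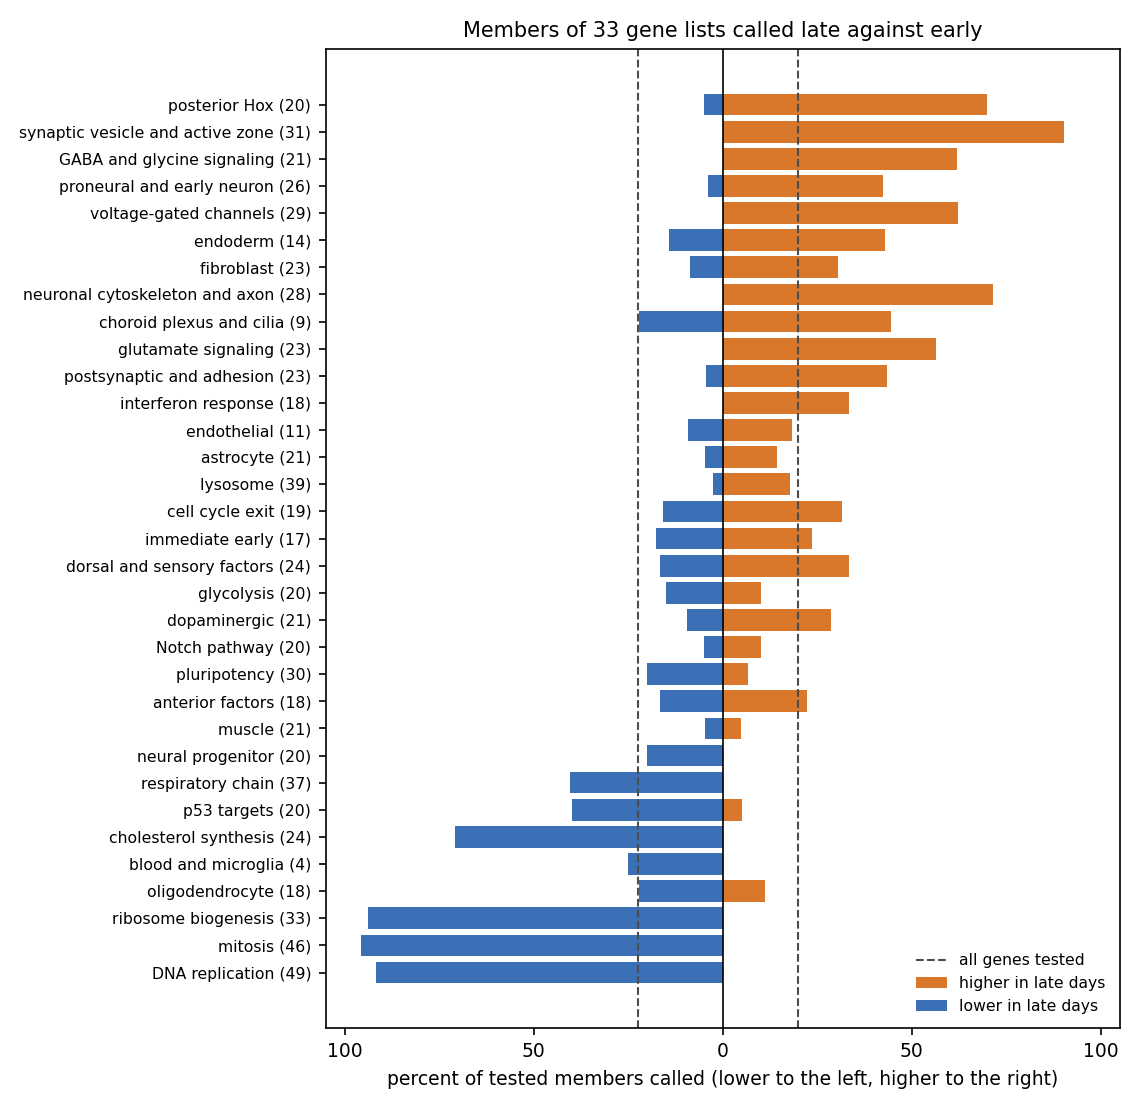
Share of tested members of each of the 33 gene lists that were called higher (orange, to the right) or lower (blue, to the left) in the late days, ordered by the list's median difference, with the number of tested members in brackets and dashed lines at the shares over all genes tested (19.9% and 22.4%). The neuronal and Hox lists extend past the right line, as do others such as choroid plexus and cilia (44.4%), endoderm (42.9%) and interferon response (33.3%). Mitosis, ribosome biogenesis, DNA replication and cholesterol synthesis extend past the left one, as do others such as respiratory chain (40.5%) and p53 targets (40.0%).

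Markers of other cell types were also present in these cultures. Of 23 tested fibroblast markers 7 rose (30.4%) and 2 fell (8.7%), against 19.9% and 22.4% of all genes, and the median was 0.95. Day 14 was the highest library for 20 of them, and for 3615 of all 13713 genes tested. Dcn (decorin) rose by 2.93 ± 0.31, from -0.47 and -0.95 on days 2 and 3 to 2.25, 2.19 and 2.93, and Fap by 2.27 ± 0.45. S100a4, described above, went the other way with the lowest difference of the list (-4.03 ± 1.17), a call kept only without day 14. Col1a1, a defining collagen gene, stood at -1.53 and -1.87 on days 2 and 3 and at -0.08, 0.19 and 1.67 late, overlapping its value of 0 on day 1 (1.73 ± 0.65, adjusted p = 0.08). The median of the fibroblast list relative to the early mean was 0.75, 1.04 and 1.68 on days 10, 12 and 14, beside the rises of the secreted proteins named first, and its part in them was not tested. Without day 1, 10 markers rose, and without day 2, 3 or 12, 5 did.

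Of 14 tested endoderm markers 6 rose (42.9%, against 19.9% of all genes) and 2 fell (14.3%, against 22.4%). Cubn, an endocytic receptor of visceral endoderm and kidney, rose by 4.04 ± 0.57 with 5.11, 4.91 and 3.08 late, and by 4.68 without day 14, whereas Epcam, of epithelial and stem cells, had a difference of -1.68 ± 0.46 that was not called without any 1 of the early days. The defining genes Afp, Alb, Ttr and Hnf4a did not pass the filter. Of 11 endothelial markers 2 rose (18.2%) and 1 fell (9.09%), against 19.9% and 22.4% of all genes. Emcn rose by 3.36 ± 0.30 and Flt1 fell by 1.13 ± 0.10, Cdh5 (VE-cadherin) varied from 1.5 on day 2 to -1.59 on day 3 before 2.17, 3.15 and 3.54 late, with a rise of 2.99 ± 0.81 that was lost without day 1, 12 or 14 and was 3.75 without day 2 and 2.21 without day 3, and Cldn5, Tie1 and Robo4 were under the filter. Of 16 blood and microglia markers only 4 passed the filter, with Ptprc, Aif1, Csf1r and Cx3cr1 under it, and Cd14 alone was called (-1.29 ± 0.34), a call kept without day 3 or day 14 only and not through the knockdown line (adjusted p = 0.0516). In the choroid plexus and cilia list 4 of 9 rose (44.4%) and 2 fell (22.2%), against 19.9% and 22.4% of all genes. Of these calls, Spag6 (a rise of 1.2 ± 0.23) and Dnaic1 (a fall of 1.18 ± 0.23), both of motile cilia, were kept in all fits that left out a library. The difference of Dnaic1 was -0.65 and not called through the knockdown line (adjusted p = 0.0641). Without day 10 or day 12, 1 gene of the list rose.

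Muscle markers varied most within phases. Their median range over the 6 libraries was 7.23, against 0.82 for all genes, and their median relative to the early mean was -0.92, -0.19 and 1.08 on days 1, 2 and 3 and -4.38, 0.75 and 2.59 on days 10, 12 and 14. Myh3, embryonic myosin, stood at 1.06 and 2.70 on days 2 and 3 and at -4.29, 2.01 and 3.67 late, and Actc1, cardiac actin, at 1.2 and 2.80 and then at -2.70, 1.35 and 3.28. Neither difference passed (-0.79 ± 2.09 and -0.69 ± 1.59, adjusted p = 0.785 and 0.754). Of the 21 tested markers 1 rose and 1 fell (4.76% each, against 19.9% and 22.4% of all genes). Fosl1, an AP-1 subunit in the immediate early list, also swung on the days between, with -3.48, 0.33 and -6.12 on days 4, 6 and 8, and its difference of -5.06 ± 0.55 was -4.47 without day 10.

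The change of the control line was finally compared with that of the HPRT knockdown line, to ask whether both lines moved alike. Hprt itself was 2.70, 3.90 and 4.56 higher in the control than in the knockdown library on days 1, 2 and 3 and 3.79, 4.21 and 5.00 higher on days 10, 12 and 14 (log2), and the control library was the higher one in all 6 pairs. Within the control line Hprt stood at -0.38 and 0.08 on days 2 and 3 and at -0.64, -0.61 and -0.32 late (difference -0.42 ± 0.16, adjusted p = 0.0854, and -0.56 with adjusted p = 0.0478 without day 2). The ratio of the lines changed between early and late days for 260 of 13713 genes, or 1.9% (limma, adjusted p under 0.05). That count was between 0 and 400 when 1 day was left out and 646 with a stricter filter on counts.

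By limma, 0 of the 20 tested panel genes differed in its change between the lines, the lowest adjusted p being 0.057, while 10 of them had an unadjusted p under 0.05. Sox2 and Olig2 had that lowest value. The control-to-knockdown ratio of Olig2 was -1.97, -2.85 and -3.06 on days 1, 2 and 3 and -5.05, -4.45 and -4.17 on days 10, 12 and 14, a difference of -1.93 ± 0.37. For Sox2 the ratio was -0.18, -0.38 and -0.25 on the early days and -1.12, -1.05 and -1.57 on the late days (-0.97 ± 0.19). In both genes the late ratios lay below all early ones, and a p that misses the threshold does not show that the lines changed alike.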

How the data were processed

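Total RNA of 1 library per line and day was sequenced on an Illumina instrument, and the authors aligned reads to mm9 with CASAVA 1.8.2 and normalized counts with DESeq. The deposited files are 28 tables of 2 libraries each, with log2 values that the authors centred per gene, so that only differences between the 2 libraries remain. The depth of each library is unknown, and no interval for counting error could be given.

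Later minus earlier values of tables of consecutive days were added up along the control line, with day 1 at 0. Loops of 4 tables closed within 1e-05 for 91.1% to 92.6% of 14667 genes in all steps except day 3 to day 4 (0.0273%). An error there would shift all late libraries alike, so that step was also taken through the knockdown tables. This shifted the tested genes by a median of 0.0296, and their median absolute distance from that shift was 0.0423. Genes with a mean normalized count of at least 16, read from the rounding of the stored numbers, were tested (13713 of 37561). On genes whose level could be read directly, this put 97.0% on the right side of the filter. Only 25 of the tested genes were of that kind, so this share could not check the filter for the other 13688.

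Days 10, 12 and 14 were compared with days 1, 2 and 3 with limma 3.58.1 in R 4.3.3 and Benjamini-Hochberg adjustment, a gene being called at an adjusted p under 0.05. The lines were compared on the ratio within each day. The code was tested on simulated data. The gene lists (33), the panel and the comparison were chosen with earlier results of these data known. Of 847 list symbols, 12 were matched through the RefSeq gene table and 2 were not found.

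Named genes were the panel, the 10 largest rises and falls among called genes with groups that did not overlap, the same call through the other route, tables agreeing within 0.1 and a mean count of at least 256, and, in each list, up to 3 called genes in the direction of most members and 1 in the other. Further genes were named after their values were seen, and a few that the rule named are not reported here. Alternatives changed the route, filter, scaling, variance model and days, and left out each library. Promoter sequences came from RefSeq (GRCm38.p6) and were not placed on mm9.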

Additional observations from a re-analysis of the deposited data

How the results depend on the processing

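No paired analysis was possible because early and late libraries are different days of 1 line and share no culture. Under 15 alternatives the number of genes called (5798) stayed within 1.5 times of its value except without day 2, with 3810 to 5875 over the fits that left out a library. The number called at 2-fold or more (2001) was 1001 with the stricter filter on counts, which left 8879 genes, and 1775 to 2036 over the fits that left out a library. The number of genes whose change differed between the lines (260) was 646 with the stricter filter and ranged from 0 without day 12 to 400 without day 3, so it rested on single days, and the cause was not tested. The direction turned for the marker panel gene Nanog (0.09), at -0.0049 without day 2, -0.08 without day 10 and -0.2 without day 12 and at most 0.55 without day 14, for the marker panel gene Pax6 (0.32), at -0.02 without day 10 and at most 0.63 without day 14, and for the marker panel gene Nr4a2 (-0.17), at 0.15 without day 14 and as low as -0.45 without day 1. None of these 3 genes was called in any fit. Alternatives added after the data were seen carried the lists and named genes through every setting: 401 list results stayed within 1.5 times of the reported count and 94 did not, and 1498 results of named genes kept their call while 147 lost it, all in the same direction. The depth of single libraries is unknown here, so a gene that was not called may still have changed.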

Other observations

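Of 18 tested interferon response genes 6 rose and none fell by limma (8 and 0 at an unadjusted p under 0.05), with a median of 0.41. Oasl2 stood at -0.38 and -0.26 on days 2 and 3 and at 1.10, 1.42 and 0.76 late, a rise of 1.3 ± 0.20, and Ifih1, a sensor of viral RNA, rose by 1.26 ± 0.23. Isg15, Irf7 and Mx1 did not pass the filter, and 3 genes rose without day 1, 2 or 3. Of 20 p53 target genes 8 fell (40.0%, against 22.4% of all genes), 1 rose (5.0%, against 19.9%) and the median was -0.45. Mdm2, which degrades p53, stood at -0.04 and 0.01 on days 2 and 3 and at -0.80, -0.73 and -0.46 late, and Bax, a cell death protein, fell by 0.60 ± 0.10. Between 4 genes (without day 2) and 13 (without day 14) of the list fell when a library was left out.

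Of 39 tested lysosome genes 7 rose (17.9%, against 19.9% of all genes), Gusb alone fell and the median was 0.16. Ctsf, a protease, rose by 1.2 ± 0.18, from -0.25 and -0.65 on days 2 and 3 to 0.87, 0.86 and 0.97, and 3 genes rose without day 2 or day 3. In glycolysis 2 of 20 genes rose (10.0%) and 3 fell (15.0%), against 19.9% and 22.4% of all genes. Eno2, the neuronal enolase, rose by 1.58 ± 0.21 (1.22, 1.71 and 2.01 late), while Eno1, the enolase of most cells, stood at 0.54 and 0.84 on days 2 and 3 and at -0.28, -0.32 and -0.51 late, with a call (-0.83 ± 0.22) kept only without day 1, the single library whose absence left any fall in the list. In the Notch list 2 of 20 rose (10.0%) and 1 fell (5.0%), the target gene Heyl by 1.61 ± 0.34. In the immediate early list 4 of 17 rose (23.5%) and 3 fell (17.6%), Egr2 among them by 1.06 ± 0.19. No immediate early gene rose without day 2, 10 or 12.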
